A study of Mus musculus with 3 samples.

Results

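The genes described here are 9 transcripts reported elsewhere to rise when histone deacetylases are inhibited: Cdkn1a, H1f0, Txnip, Klf2, Mt1, Mt2, Gadd45b, Clu and Tubb3. They were taken by symbol, all 9 were found among the 31053 genes of the count matrix, and no threshold on their values was used to choose them. They were, however, chosen with earlier results of these data known. On GRCm38 (GENCODE vM21) all 9 are protein-coding genes on the plus strand: Cdkn1a at chr17:29090976-29100727, H1f0 at chr15:79028450-79030504, Txnip at chr3:96557957-96561883, Klf2 at chr8:72319033-72321656, Gadd45b at chr10:80930073-80932204, Clu at chr14:65968483-65981547, Tubb3 at chr8:123411424-123422015, and Mt1 and Mt2 on chromosome 8 as given with their promoters. The cells came from spleens of C57BL/6 mice, enriched for dendritic cells (DCs), the antigen-presenting cells that prime T cells. Panobinostat, an inhibitor of most histone deacetylases (code LBH on the hashtags), was given for 2 days to leukemia-bearing mice (samples 1 and 2) and to wild-type (WT) mice (1 sample). Vehicle (code D5W, read here as dextrose in water) was given over the same 2 days to leukemia-bearing mice (samples 1 and 2) and to WT mice (1 sample). The leukemia line and the age and sex of the mice are not given in the sources used here. For leukemia-bearing mice the labels name a density gradient, a sort of GFP-negative cells and magnetic negative selection for DCs, so cells carrying GFP were removed by the gate. The 6 samples were marked with hashtag antibodies, pooled and run in 1 droplet capture with 3' chemistry. Nothing in the labels says that each hashtag is a separate animal, so the p-values measure the spread between hashed samples, which may be technical.

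Histone deacetylases remove acetyl groups from lysines of histones and other proteins, and inhibiting them lets acetylation build up at many promoters and enhancers. Cdkn1a encodes p21, an inhibitor of cyclin-dependent kinases that holds cells in G1, and H1f0 encodes a linker histone of non-dividing, differentiated cells. Txnip encodes an arrestin-domain protein that binds thioredoxin and limits glucose uptake. Klf2 encodes a zinc-finger transcription factor of quiescent lymphocytes and of endothelium under flow. Mt1 and Mt2 encode metallothioneins, small cysteine-rich proteins that bind zinc and copper and are induced by the metal-sensing factor MTF1. Gadd45b encodes a stress and NF-kB-responsive activator of p38 and JNK signalling. Clu encodes clusterin, a secreted chaperone, and Tubb3 a beta-tubulin best known from neurons.

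Of 38717 barcodes, 22281 (57.55%) carried 1 hashtag, and 13703 (35.39%) carried several and were left out. After cell filters and removal of 1909 predicted doublets, 19127 cells with 166031740 unique molecular identifiers (UMIs, counted RNA molecules) remained. Hashed samples held 1675 to 6517 cells, with a median of 5238 to 13070 UMIs per cell. Leukemia vehicle 2 stood apart: its median depth was the highest, its hashtag signal the lowest (a median of 94 against 353 to 770 in the other 5), and 1217 of its 2610 cells were erythroid-like. Clusters were named from marker genes, giving 2708 plasmacytoid (pDC-like), 2489 conventional type 1 (cDC1-like), 4074 conventional type 2 (cDC2-like), 3673 mature DC-like, 346 B cell-like, 2373 erythroid-like, 196 red pulp macrophage-like, 88 endothelial-like, 82 megakaryocyte-like and 34 mast or basophil-like cells. Another 3064 cells stayed unnamed. All markers of each class were higher in it than in the other cells, except 1 of the 10 cDC2 markers. The erythroid-like cluster 4 was led by globin genes together with Mcpt2, a mast cell protease gene. The Siglec-H antibody, a pDC marker, had a median of 459 UMIs in pDC-like cells and of 234 to 249.5 in the other named classes. Levels are given as counts per 1e6 UMIs (CPM) summed over a class in 1 hashed sample; since 3' counts are compared only within a gene, no gene is ranked against another.

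The promoters of the metallothioneins are shown because Mt1 was the one gene of the 9 called with panobinostat, and Mt2, the other metallothionein, lies near it. On GRCm38, Mt2 (chr8:94172664-94173568) and Mt1 (chr8:94179082-94180327) lie on the plus strand, with 5514 bases from the end of Mt2 to the start of Mt1. The sequences below are the RefSeq GRCm38.p6 windows of 250 bases before to 50 after the start site, both on the plus strand, for Mt1 at chr8:94178839-94179138 and for Mt2 at chr8:94172368-94172667. Capitals mark the core of the metal response element bound by MTF1, searched as TGCACNC or TGCGCNC on both strands.
Mt1 promoter: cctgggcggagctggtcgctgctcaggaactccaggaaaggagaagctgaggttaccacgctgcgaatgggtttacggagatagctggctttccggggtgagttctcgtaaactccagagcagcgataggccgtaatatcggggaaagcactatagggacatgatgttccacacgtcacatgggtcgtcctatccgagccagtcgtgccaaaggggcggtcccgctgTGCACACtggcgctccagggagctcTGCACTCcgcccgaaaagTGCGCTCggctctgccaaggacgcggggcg
Mt2 promoter: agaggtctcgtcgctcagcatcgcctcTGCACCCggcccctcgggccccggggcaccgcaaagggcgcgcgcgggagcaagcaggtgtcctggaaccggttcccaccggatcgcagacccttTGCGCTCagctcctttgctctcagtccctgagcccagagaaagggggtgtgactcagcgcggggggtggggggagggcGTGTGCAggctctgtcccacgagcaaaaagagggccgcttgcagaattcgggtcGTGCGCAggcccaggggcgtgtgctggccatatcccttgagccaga
The Mt1 window held 3 such cores and the Mt2 window 4, none overlapping another. Of 32851 mouse promoter windows of 300 bases, 25.7% held at least 1 core, 1.97% held 3 or more and 0.517% held 4 or more. RefSeq windows were matched for 8 of the 9 genes; the Txnip and Klf2 windows held 1 core each, and those of Cdkn1a, H1f0, Gadd45b and Tubb3 none. A match is a description of the letters and was not tested for binding.

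Over both treatments, the genes differed widely between cell classes, shown here as the mean over samples with at least 20 cells of the class. Cdkn1a averaged 188 ± 25.4 CPM in mature DC-like cells (SD, n = 6; range 155 to 211), and every sample of that class was above every sample of the other classes, where the highest was 66.9 CPM in an erythroid-like sample. The erythroid-like (42.2 ± 19.2 CPM, n = 5), red pulp macrophage-like (42.3 ± 4.58 CPM, n = 2) and cDC1-like (40.2 ± 13.9 CPM, n = 6) levels overlapped, and pDC-like and B cell-like cells stayed below 8 CPM. In cDC1-like cells most Cdkn1a came from the small cluster 16, led by Il12b, Cxcl9 and Cxcl10, with 124 to 195 CPM against 6.51 to 11.4 CPM in the larger cluster 3. H1f0 averaged 213 ± 26.6 CPM in endothelial-like cells (n = 3) and 188 ± 19.2 CPM in erythroid-like cells (n = 5), 2 ranges that overlapped. Next came mature DC-like cells with 56.8 ± 6.98 CPM (n = 6), apart from both neighbours in the order, and cDC2-like cells with 27.3 ± 2.47 CPM (n = 6).

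Txnip was highest in endothelial-like cells (576 ± 168 CPM, n = 3). It averaged 219.5 ± 14.96 CPM in pDC-like cells (n = 6) and 216 ± 24.4 CPM in erythroid-like cells (n = 5), which overlapped, and 36.7 ± 6.66 CPM in mature DC-like cells (n = 6), the lowest mean, whose range overlapped that of cDC1-like cells. Klf2 averaged 961 ± 98.98 CPM in pDC-like cells (n = 6; range 813 to 1078), above every sample of mature DC-like cells (495 to 804). The other DC, B cell-like and endothelial-like averages lay between 450 and 639 CPM with overlapping ranges, and erythroid-like cells were lowest at 33.8 ± 14.7 CPM (n = 5). Mt1 averaged 629 ± 139 CPM in erythroid-like cells (n = 5), above the 351 ± 45.5 CPM of red pulp macrophage-like cells (n = 2). Mature DC-like (129 ± 28.1 CPM) and cDC1-like cells (124 ± 25.7 CPM, n = 6 each) overlapped, and pDC-like cells (18.7 ± 2.86 CPM, n = 6) were below every other class. Mt2 averaged 193 ± 41.1 CPM in erythroid-like cells (n = 5), above every sample elsewhere.

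Gadd45b averaged 1312 ± 129 CPM in mature DC-like cells (n = 6), where the lowest sample (1147 CPM) was above every sample of the other classes. The cDC1-like (111 ± 48.3 CPM) and pDC-like (108 ± 8.98 CPM, n = 6 each) values overlapped. Clu averaged 1211 ± 196.5 CPM in endothelial-like cells (n = 3) and was 278.5 CPM in megakaryocyte-like cells (n = 1, WT vehicle). It averaged 69.5 ± 38.4 CPM in mature DC-like cells (n = 6). Clu was at most 9.48 CPM in any sample of pDC-, cDC1-, cDC2-, B cell-, erythroid- or red pulp macrophage-like cells. Within mature DC-like cells, Clu sat in cluster 11, which it led together with the chemokine gene Ccl17, at 195 to 533 CPM. Tubb3 gave 288 UMIs in 243 cells (1.27% of the kept cells). It was seen above a few CPM only in endothelial-like cells (62.7 ± 33.4 CPM, n = 3), and it did not pass the low-count filter of the panobinostat fit in the DC classes, so its UMI counts are given there.

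**Figure D1:**
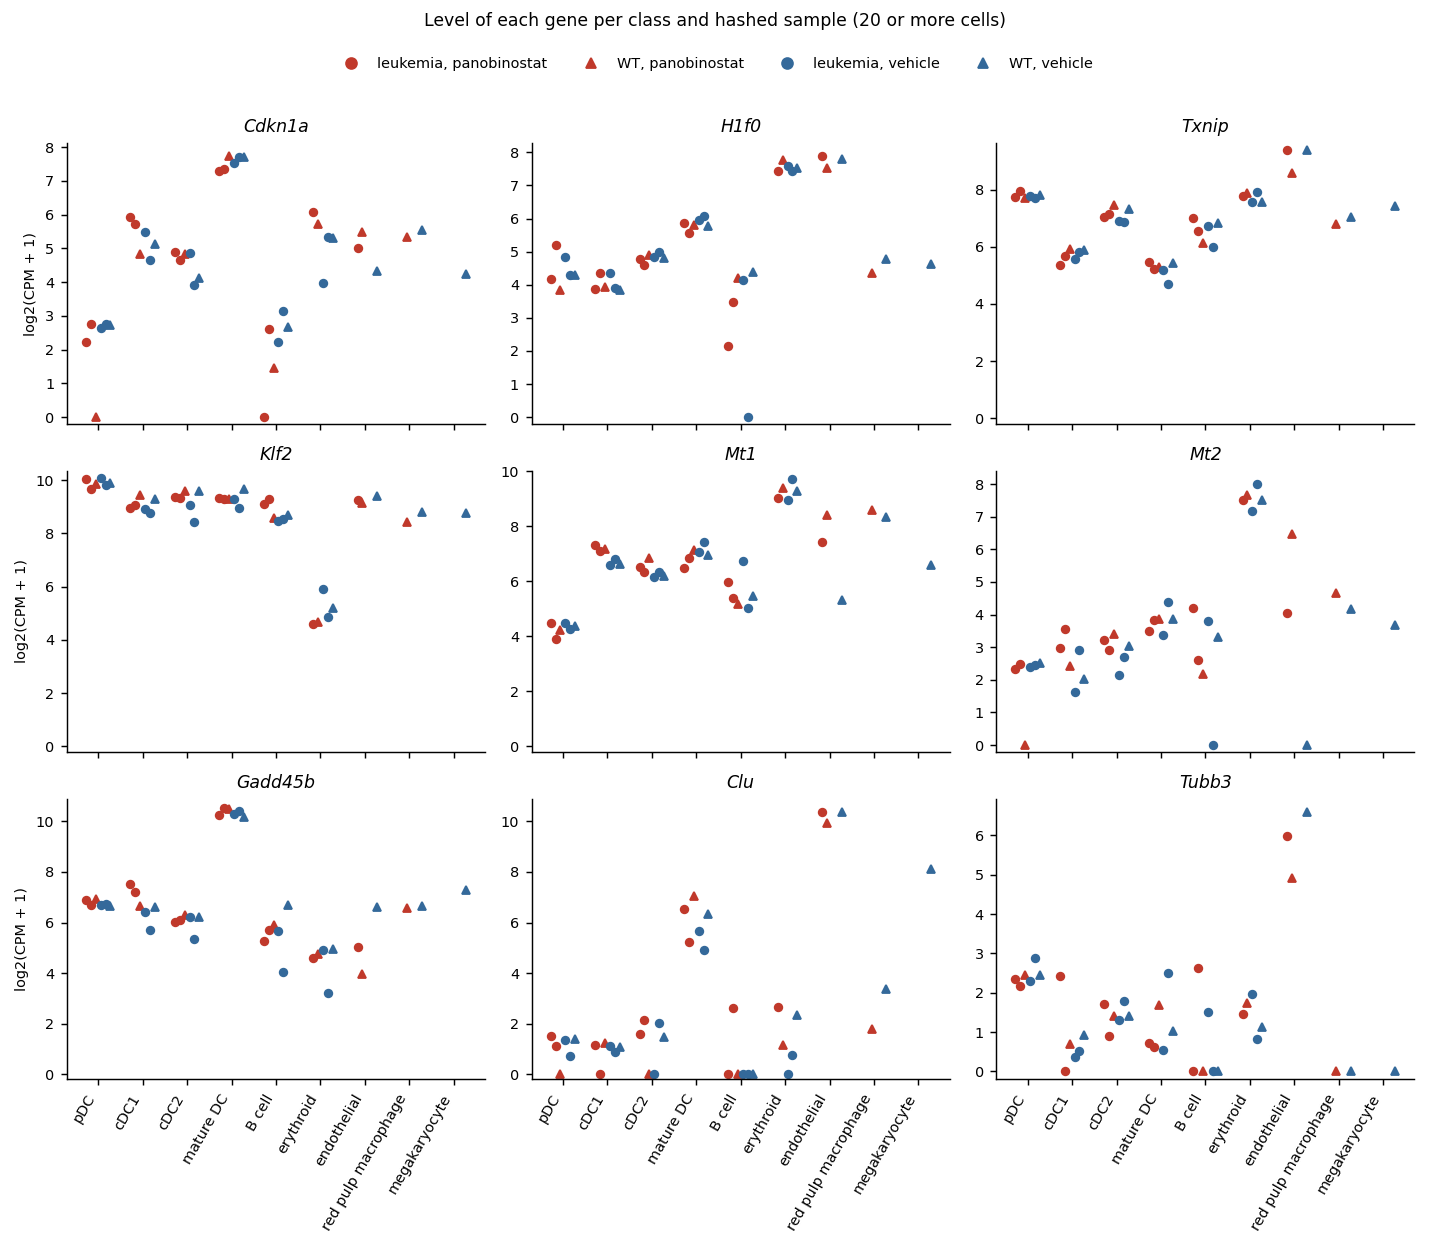
Level of each of the 9 genes, as log2(CPM + 1), in every class with a sample of at least 20 cells, 1 point per hashed sample (red panobinostat, blue vehicle, circles leukemia-bearing, triangles WT). Cdkn1a and Gadd45b stand highest in mature DC-like cells, Klf2 in pDC-like cells, and Mt1 and Mt2 in erythroid-like cells.

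The comparison of panobinostat with vehicle asks whether these genes rose in each class. Classes with at least 2 samples of 20 or more cells per treatment were fitted with edgeR on UMI sums, with disease state in the model: pDC-, cDC1-, cDC2-, mature DC-, B cell- and erythroid-like cells. Of 54 possible gene and class pairs, 42 passed the filter on low counts (4 genes in B cell-like, 7 in cDC1-like, 8 each in cDC2-like and mature DC-like, 9 in erythroid-like and 6 in pDC-like cells). At an adjusted p under 0.05 over all genes of the class, 1 pair was higher with panobinostat (Mt1 in cDC1-like cells) and 0 were lower, as also with DESeq2. Over all genes and classes, 0.134% of 51364 tests were called higher and 0.035% lower. At an unadjusted p under 0.05, 12 of the 42 pairs were higher and 0 lower, against 3.73% higher and 2.97% lower over all genes and classes. Because the 9 genes were chosen with earlier results of these data known, this difference is a description and not independent support. Of the 42 changes 27 lay above 0, as did 49.0 to 49.7% of all genes tested in each class. Pairs of 1 gene in several classes share its samples and capture. The median change of the genes that passed was +0.25 log2 in cDC1-like, +0.33 in cDC2-like, +0.24 in erythroid-like, +0.05 in mature DC-like, -0.05 in pDC-like and -0.25 in B cell-like cells, while the median of all genes tested lay within 0.01 of 0 in each class.

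Mt1 was 159, 137 and 142 CPM in cDC1-like cells of leukemia panobinostat 1, leukemia panobinostat 2 and WT panobinostat, against 96.2, 111 and 98.7 CPM in leukemia vehicle 1, leukemia vehicle 2 and WT vehicle. All 3 panobinostat samples were above all 3 vehicle samples, in leukemia-bearing and in WT mice. The change was +0.55 log2 (SE 0.0891, 95% interval 0.363 to 0.739; edgeR adjusted p = 0.00536), in a class where 0.483% of 9102 genes were called higher. After thinning each cell to 2000 UMIs, an Mt1 UMI was found in 22.3, 20.7 and 21.6% of panobinostat cells, against 16.1, 15.98 and 13.6% of vehicle cells. Without thinning the shares were 62.6, 62.7 and 65.1% with panobinostat and 53.5, 58.6 and 49.9% with vehicle. The pDC-like cells, the class lowest in Mt1, had thinned shares of 1.95 to 4.45%, at a median depth of 4992 to 5630 UMIs against 10766 to 12731 in cDC1-like cells.

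By cluster, Mt1 in the larger cDC1-like cluster 3 was 141, 134 and 145 CPM with panobinostat against 83.4, 99.8 and 97.0 CPM with vehicle, without overlap. In cluster 16 the values overlapped, at 204, 148 and 129 CPM with panobinostat against 145, 204 and 109 CPM with vehicle. Clusters 8 and 9 also had cDC1 markers but were led by pancreatic enzyme genes (Clps, Prss2, Ctrb1, Cela3b) and were left unnamed; their Mt1 values overlapped between treatments, with 63.0 to 106 CPM and 97.0 to 132 CPM with panobinostat against 69.2 to 92.2 CPM and 99.3 to 211 CPM with vehicle. With these clusters counted as cDC1-like (4014 cells, an alternative added after the data were seen), the change was +0.35 log2 with an edgeR adjusted p of 0.0978. The direction was the same in all 20 alternatives and the call held in 13 of them, with changes of 0.338 to 0.687 log2 and edgeR or DESeq2 adjusted p from 3.4e-07 to 0.111. The fit of the leukemia samples alone is also the fit without either WT sample, so the 13 count that result more than once. With cells assigned or clustered in other ways, the call was lost with the hashtag ratio call (4026 cDC1-like cells, +0.34 log2, edgeR adjusted p = 0.0599), Leiden resolution 0.5 (edgeR adjusted p = 0.0798) or 2 (edgeR adjusted p = 0.0622), and with the list genes used for clustering (edgeR adjusted p = 0.0952). It was also lost without leukemia panobinostat 1 (edgeR adjusted p = 0.0827) and without leukemia vehicle 1 (edgeR adjusted p = 0.111). Erythroid-like cells hold far more Mt1: 10 erythroid markers, none at 0, summed in cDC1-like cells to 775 to 1360 CPM with panobinostat and to 961 to 1526 CPM with vehicle, which overlapped; their part in the result was not tested.

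**Figure D2:**
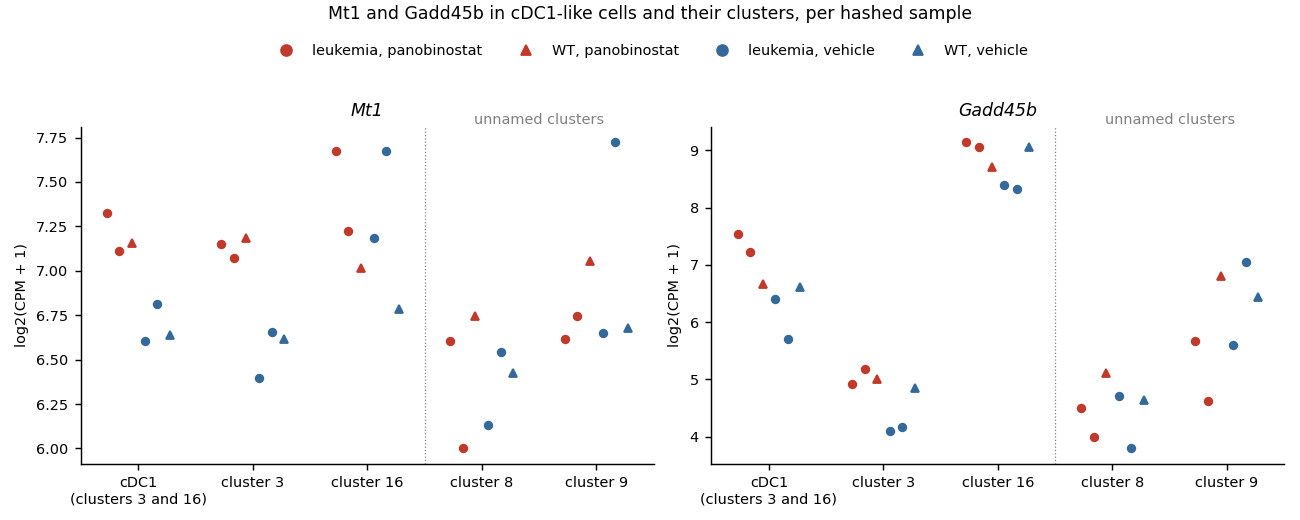
Mt1 and Gadd45b, as log2(CPM + 1) on axes that do not start at 0, by hashed sample (red panobinostat, blue vehicle, circles leukemia-bearing, triangles WT) in cDC1-like cells, in their clusters 3 and 16, and in the unnamed clusters 8 and 9. Panobinostat samples lie above vehicle samples for both genes in cluster 3, and the treatments overlap in cluster 16.

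Mt2 had few UMIs in cDC1-like cells: 6.82, 10.7 and 4.38 CPM with panobinostat against 2.08, 6.48 and 3.09 CPM with vehicle. The samples overlapped, and the change of +0.82 log2 (95% interval 0.13 to 1.51) did not pass (edgeR adjusted p = 0.389). Mt1 in cDC2-like cells was 91.4, 78.9 and 114 CPM with panobinostat against 69.7, 79.0 and 71.6 CPM with vehicle, overlapping by leukemia vehicle 2. Its change of +0.45 log2 (95% interval 0.205 to 0.695) did not pass either (edgeR adjusted p = 0.228). Within cDC2-like cluster 15, led by Retnla and Ifit3, Mt1 was 254, 287 and 544 CPM with panobinostat against 177, 186 and 200 CPM with vehicle, without overlap. That cluster held only 5.54 to 21.1% of cDC2-like cells per sample (40 to 102 cells). The other cDC2-like clusters are not given here, so it does not stand for the class. In erythroid-like cells, where both metallothioneins were highest, the fit used 5 samples because leukemia panobinostat 1 had 19 such cells. There Mt1 was 522 and 668 CPM in leukemia panobinostat 2 and WT panobinostat, against 495, 843 and 619 CPM with vehicle, and Mt2 was 183 and 204 CPM with panobinostat against 143, 256 and 181 CPM with vehicle. Both ranges overlapped, with changes of -0.06 log2 (95% interval -0.502 to 0.38) for Mt1 and +0.07 log2 (95% interval -0.377 to 0.518) for Mt2. In mature DC-like cells Mt1 was 88.4, 115 and 140 CPM with panobinostat against 134, 173 and 122.5 CPM with vehicle (-0.18 log2, 95% interval -0.562 to 0.197), lower in both leukemia panobinostat samples than in both leukemia vehicle samples and higher in WT panobinostat than in WT vehicle. The interaction there, -0.83 log2, did not pass (edgeR adjusted p = 0.31; 0.0226 to 1.0 over 16 alternatives); it was called in 2 of them, without leukemia vehicle 1 and without leukemia panobinostat 2.

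Gadd45b in cDC1-like cells was 185.5, 149 and 100 CPM with panobinostat against 83.4, 51.0 and 96.6 CPM with vehicle. The samples did not overlap, but WT panobinostat and WT vehicle were nearly level while the leukemia samples were far apart. The change of +0.81 log2 (95% interval 0.39 to 1.23) did not pass (edgeR adjusted p = 0.0894). Thinned to 2000 UMIs, 15.5, 17.3 and 11.7% of panobinostat cells and 10.3, 5.33 and 11.6% of vehicle cells had a Gadd45b UMI (unthinned 33.2, 31.3 and 34.0% against 27.8, 20.1 and 26.1%). Erythroid-like cells, low in Gadd45b, had 1.73 to 7.42% at a median depth of 10770 to 16081 UMIs.

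In leukemia-bearing mice alone, Gadd45b in cDC1-like cells was 1.32 log2 higher with panobinostat (edgeR adjusted p = 3.58e-06), a fit in which 1.67% of 8618 genes were called higher. Over the 20 alternatives to the fit of all samples, of which this is 1, the adjusted p of Gadd45b ran from 6.23e-15 to 1.0. The leukemia fit, which is also what remains without either WT sample, called Mt1 as well, and Cdkn1a at +0.69 log2 (edgeR adjusted p = 0.048). Over all samples Cdkn1a was +0.25 log2 there (edgeR adjusted p = 0.714; 0.048 to 1.0 over the same alternatives), and the sign turned without doublet removal (-0.20 log2) and with the stricter cell filter (-0.18 log2). Most Cdkn1a of the class lay in cluster 16, a share of 26.4 and 19.3% of the class in leukemia panobinostat 1 and 2, against 19.2 and 8.88% in leukemia vehicle 1 and 2; its part was not tested. For Gadd45b the interaction of treatment and disease, the test of whether the change differs from that in WT mice, was +1.28 log2 (SE 0.225, 95% interval 0.813 to 1.74; edgeR adjusted p = 0.0054), with 1 WT sample per treatment. Of 23 pairs with at least 20 CPM in every sample, this 1 was called higher and 0 lower by edgeR, with 5 higher and 2 lower at an unadjusted p under 0.05, against 3.8% higher and 2.89% lower over all genes. The shares over all genes were not limited to 20 CPM, so the comparison is not like for like. Over all genes of the classes with 6 samples, 0.136% of 44195 tests were called higher and 0.143% lower, and in cDC1-like cells 0.2% of 9478 were higher. The call held in 9 of 16 alternatives, and DESeq2 gave +1.30 log2 with an adjusted p of 1.0. None of these alternatives left out a WT sample.

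Most Gadd45b in cDC1-like cells lay in cluster 16, at 567, 533 and 416 CPM with panobinostat against 337, 319 and 532 CPM with vehicle, which overlapped. That cluster held 26.4, 19.3 and 14.4% of cDC1-like cells with panobinostat and 19.2, 8.88 and 12.6% with vehicle. It was highest in leukemia panobinostat 1 and next highest in leukemia panobinostat 2 and leukemia vehicle 1, which were close; its part in the Gadd45b and Cdkn1a levels was not tested. In cluster 3 the levels were lower and did not overlap, at 29.3, 35.4 and 31.2 CPM with panobinostat against 16.2, 17.0 and 27.7 CPM with vehicle. In mature DC-like cells, where Gadd45b was highest, it was 1225, 1483 and 1429 CPM with panobinostat against 1244, 1347 and 1147 CPM with vehicle. The samples overlapped, and the change of +0.24 log2 (95% interval 0.0411 to 0.447) did not pass (edgeR adjusted p = 0.381). In pDC-like cells it was 119, 102 and 120 CPM with panobinostat against 102, 106 and 101 CPM with vehicle.

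Cdkn1a, a widely used marker of deacetylase inhibition, passed in no class. In cDC2-like cells it was 28.6, 24.1 and 27.5 CPM with panobinostat against 28.2, 14.1 and 16.5 CPM with vehicle, overlapping by leukemia vehicle 1 (+0.53 log2, 95% interval 0.113 to 0.953; edgeR adjusted p = 0.508). In erythroid-like cells it was 66.9 and 51.5 CPM in leukemia panobinostat 2 and WT panobinostat against 14.6, 39.1 and 38.7 CPM with vehicle, without overlap in the 5 samples fitted (+0.82 log2, 95% interval 0.164 to 1.47; edgeR adjusted p = 1.0). The lowest value, 14.6 CPM, rests on the 28 erythroid-like cells of leukemia vehicle 1. Over 17 alternatives the erythroid-like change ran from 0.166 to 1.28 log2 and was called in 0. In cDC1-like cells it was 59.5, 51.4 and 27.5 CPM with panobinostat against 44.2, 24.2 and 34.3 CPM with vehicle, high in the leukemia panobinostat samples and lower in WT panobinostat than in WT vehicle. In mature DC-like cells, its highest class, it was 155, 161 and 211 CPM with panobinostat against 185, 208 and 209.5 CPM with vehicle, which overlapped (-0.09 log2, 95% interval -0.333 to 0.154). H1f0 likewise passed in no class: it was 172.5 and 219 CPM in erythroid-like cells of leukemia panobinostat 2 and WT panobinostat against 193, 173.5 and 183 CPM with vehicle. In mature DC-like cells H1f0 was 57.5, 46.6 and 54.5 CPM with panobinostat against 61.3, 67.0 and 53.8 CPM with vehicle, again overlapping.

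**Figure D3:**
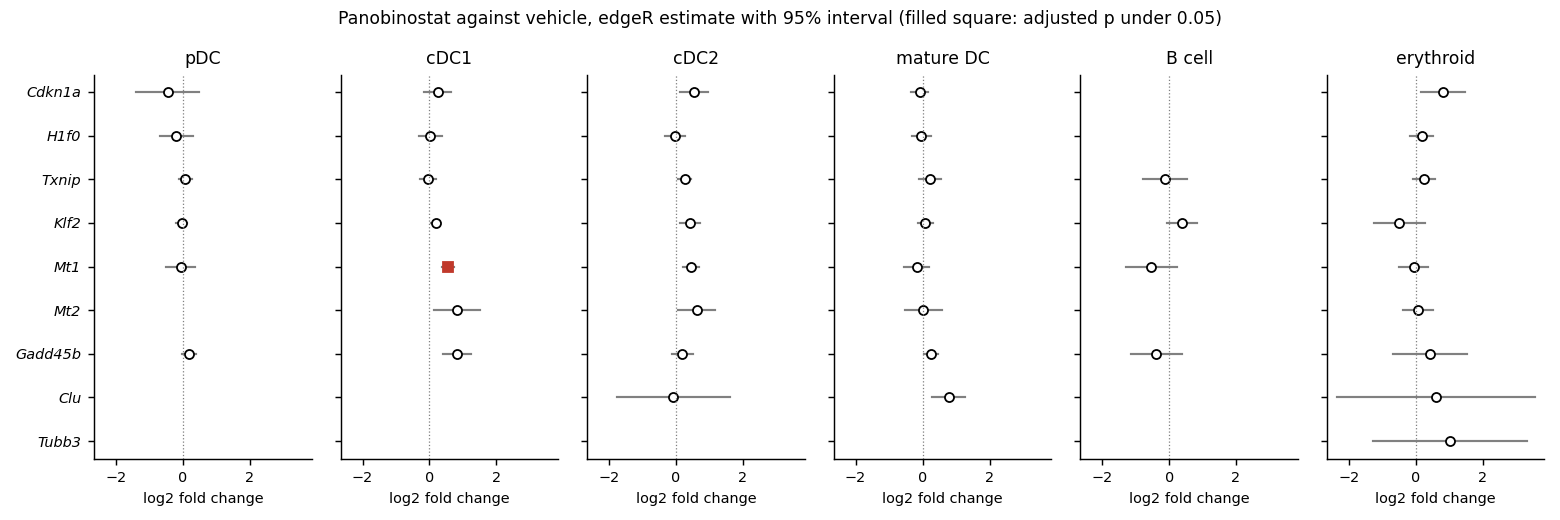
Panobinostat against vehicle (log2 fold change, bars are 95% intervals from edgeR) for each gene that passed the low-count filter in each fitted class; a filled red square passed an adjusted p under 0.05. Mt1 in cDC1-like cells is the one filled square, and 27 of 42 points lie above 0.

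Txnip in cDC2-like cells was 131, 142 and 178 CPM with panobinostat against 118, 116 and 160 CPM with vehicle, higher with panobinostat within leukemia-bearing and within WT mice but overlapping across them (+0.25 log2, 95% interval 0.0713 to 0.434; edgeR adjusted p = 0.438). In cDC1-like cells it was 40.3, 50.5 and 60.4 CPM with panobinostat against 46.6, 55.3 and 57.95 CPM with vehicle (-0.04 log2, 95% interval -0.269 to 0.192). Klf2 in cDC2-like cells was 652, 640 and 780 CPM with panobinostat against 537, 342 and 777 CPM with vehicle, close in the WT samples (+0.42 log2, 95% interval 0.114 to 0.718; edgeR adjusted p = 0.442). In cDC1-like cells Klf2 was 498, 540 and 692 CPM with panobinostat against 480, 435 and 629 CPM with vehicle (+0.19 log2, 95% interval 0.0556 to 0.326; edgeR adjusted p = 0.277). In pDC-like cells, its highest class, the change was -0.04 log2 (95% interval -0.194 to 0.115), with 1063, 813 and 933 CPM with panobinostat against 1078, 913 and 963 CPM with vehicle.

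Clu in mature DC-like cells was 90.9, 36.7 and 131 CPM with panobinostat against 49.6, 29.4 and 80.0 CPM with vehicle. The groups overlapped, also among the leukemia samples alone, and the change of +0.78 log2 (95% interval 0.28 to 1.28) did not pass (edgeR adjusted p = 0.258; 1.66e-06 to 1.0 over 20 alternatives, called in 2 of them). Cluster 11, where the transcript sits, held 15.9, 12.1 and 25.6% of mature DC-like cells with panobinostat against 10.0, 10.5 and 10.3% with vehicle, without overlap. Within that cluster Clu was 533, 195 and 429 CPM with panobinostat against 297, 227 and 451 CPM with vehicle, which overlapped. After thinning, 6.76, 5.17 and 10.8% of panobinostat cells and 5.87, 3.797 and 6.63% of vehicle cells of the mature DC class had a Clu UMI (unthinned 9.09, 7.32 and 15.4% against 8.51, 6.17 and 9.73%), at median depths of 4054.5 to 4930.5 UMIs. In cDC1-like cells, where the transcript was near 0, the thinned share was at most 0.555% at median depths of 10766 to 12731 UMIs. Tubb3 gave 14, 0 and 5 UMIs in cDC1-like cells with panobinostat against 1, 1 and 12 UMIs with vehicle; 14 of the 19 panobinostat UMIs came from leukemia panobinostat 1, and 10 of these from 1 cell of cluster 16.

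**Figure D4:**
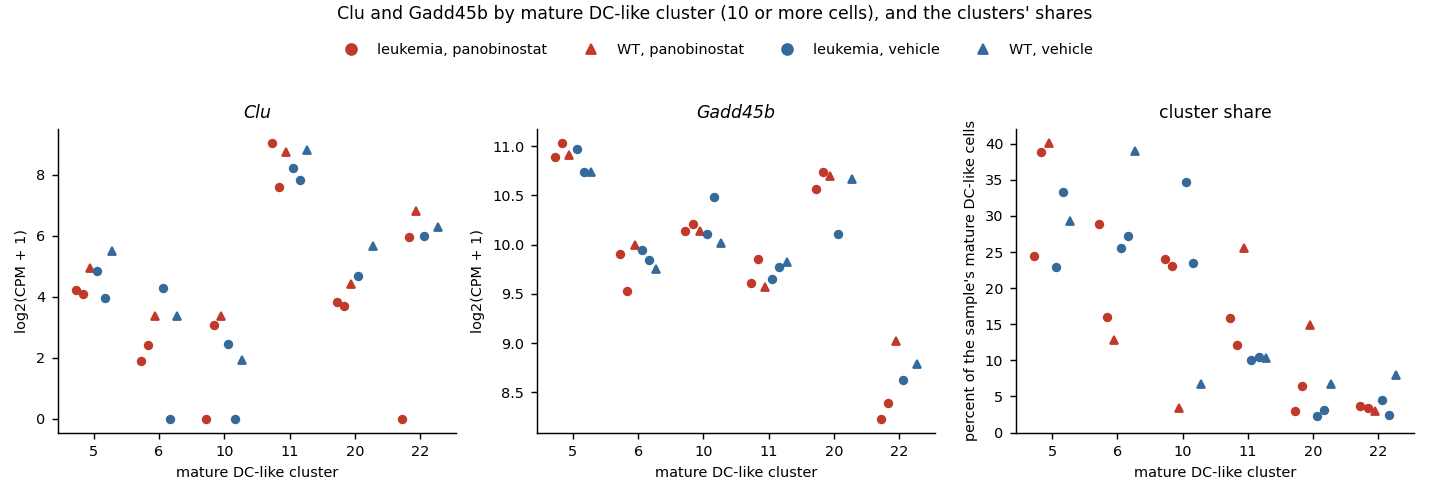
Clu and Gadd45b, as log2(CPM + 1), in the 6 mature DC-like clusters for hashed samples with at least 10 cells, and each cluster's percentage of the sample's mature DC-like cells (red panobinostat, blue vehicle, circles leukemia-bearing, triangles WT). Clu is concentrated in cluster 11, whose share was 12.1 to 25.6% with panobinostat and 10.0 to 10.5% with vehicle, and Gadd45b is lowest in cluster 22 in every sample shown.

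Classes with too few cells for a fit were summed per treatment, with exact Poisson 95% intervals that cover counting error only. The sums mix disease states unequally. WT mice gave 27 of 33 endothelial-like cells with vehicle against 29 of 55 with panobinostat. They gave 35 of 41 megakaryocyte-like cells with vehicle against 18 of 41 with panobinostat. Disease state was not separated from treatment in these sums. In endothelial-like cells Mt1 was 263 CPM with panobinostat (199 to 341; 57 UMIs in 55 cells) against 39.5 CPM with vehicle (12.8 to 92.1; 5 UMIs in 33 cells), and Clu was 1149 CPM (1011 to 1301) against 1602 CPM (1389 to 1838). Of the 57 Mt1 UMIs, 46 came from 5 of 29 WT panobinostat cells, and 9 of 55 panobinostat cells against 4 of 33 vehicle cells had an Mt1 UMI. Mt2 had 13 UMIs, in 2 panobinostat cells, against 0 UMIs with vehicle, and 12 of the 13 came from 1 WT panobinostat cell. In megakaryocyte-like cells H1f0 was 125 CPM with panobinostat (87.0 to 174) against 24.1 CPM with vehicle (7.82 to 56.2), and Cdkn1a was 67.8 CPM (40.8 to 106) against 14.5 CPM (2.98 to 42.3). Gadd45b and Txnip ran the other way there, Gadd45b with 46.4 CPM (24.7 to 79.3) with panobinostat against 159 CPM (109.5 to 223) with vehicle, and Txnip with 64.2 CPM (38.1 to 101.5) against 169 CPM (117.5 to 235). In red pulp macrophage-like cells Mt1 was 385.5 CPM (331 to 447) with panobinostat against 322 CPM (277 to 372) with vehicle. In mast or basophil-like cells Mt1 was 18.1 CPM (0.457 to 101) with panobinostat against 162 CPM (97.5 to 253) with vehicle, and in endothelial-like cells Gadd45b was 18.5 CPM (5.03 to 47.3) against 78.9 CPM (37.8 to 145). Of the 36 gene and class pairs of these 4 classes, the panobinostat interval lay above the vehicle interval in 3 and below it in 3. The share over all genes was not computed for these classes, so these counts have no background to be set against. These values rest on 11 to 109 cells per treatment and have no test.

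No class was named progenitor-like. Cluster 25 (140 cells) had 8 of 9 progenitor markers, among them Mpo, Prtn3 and Ctsg, but was led by Nkg7 and Xcl1, genes of NK cells, and stayed unnamed. Its samples held 11 to 36 cells. Cdkn1a was 46.9, 64.9 and 65.4 CPM with panobinostat against 38.4, 61.7 and 9.58 CPM with vehicle there. Mt1 was 17.6, 86.5 and 183 CPM with panobinostat against 34.5, 52.2 and 81.4 CPM with vehicle. Both genes overlapped between treatments, and 15 of the 16 Clu UMIs in the cluster came from leukemia panobinostat 1.

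Leukemia-bearing and WT samples were compared in the same fits, with treatment in the model and 1 WT sample per treatment. No alternative to this comparison left out a WT sample, so the alternatives do not show how far it rests on either one. The labels name the density gradient and the GFP-negative sort for leukemia-bearing mice. A difference in cell preparation therefore cannot be told apart from disease state here. Of the 42 pairs, 3 were lower in leukemia-bearing mice and 0 higher in edgeR; DESeq2 called 1 lower and 0 higher. At an unadjusted edgeR p under 0.05, 8 were lower and 2 higher, against 4.66% lower and 4.4% higher over all genes and classes. Over all genes and classes 0.876% of tests were called lower and 0.654% higher. Klf2 in cDC1-like cells was 498 and 540 CPM (panobinostat) and 480 and 435 CPM (vehicle) in leukemia-bearing mice, against 692 CPM (panobinostat) and 629 CPM (vehicle) in WT mice. The disease groups did not overlap. Klf2 was lower by 0.53 log2 in the leukemia-bearing samples (SE 0.0657, 95% interval -0.67 to -0.393, edgeR adjusted p = 9.38e-05), called in 16 of 16 alternatives. Txnip in cDC1-like cells was 40.3 and 50.5 CPM (panobinostat) and 46.6 and 55.3 CPM (vehicle) in leukemia-bearing mice, against 60.4 CPM (panobinostat) and 57.95 CPM (vehicle) in WT mice, again without overlap. Txnip was lower by 0.40 log2 in the leukemia-bearing samples (SE 0.108, 95% interval -0.633 to -0.176, edgeR adjusted p = 0.0333), called in 11 of 16 alternatives. In that class 3.86% of genes were called lower in leukemia-bearing mice.

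Clu in mature DC-like cells was 90.9 and 36.7 CPM (panobinostat) and 49.6 and 29.4 CPM (vehicle) in leukemia-bearing mice, against 131 CPM (panobinostat) and 80.0 CPM (vehicle) in WT mice. The groups overlapped across treatments but not within them. Clu was lower by 1.03 log2 in the leukemia-bearing samples (95% interval -1.52 to -0.541, edgeR adjusted p = 0.0467), in a class where 0.216% of 9274 genes were called lower. That call held in 7 of 16 alternatives, with changes of -1.35 to -0.819 log2; it was lost without leukemia panobinostat 2, leukemia vehicle 1 or leukemia vehicle 2. The Txnip call was lost without leukemia panobinostat 1 or leukemia vehicle 1, with changes of -0.487 to -0.307 log2 over its alternatives. In cDC2-like cells Txnip (-0.43 log2, edgeR adjusted p = 0.0761) and Klf2 (-0.56 log2, edgeR adjusted p = 0.227) did not pass.

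**Figure D5:**
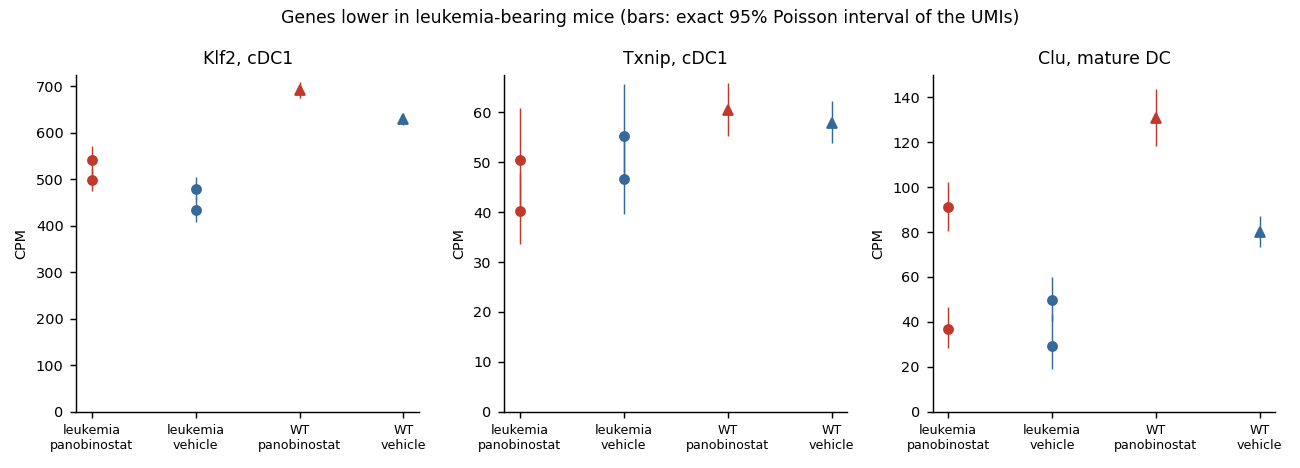
Klf2 and Txnip in cDC1-like cells and Clu in mature DC-like cells (CPM, axis from 0) by hashed sample, leukemia-bearing left of WT; bars are exact 95% Poisson intervals of the UMI counts and cover counting error only. In cDC1-like cells the 4 leukemia samples lie below both WT samples for Klf2 and Txnip.

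The related genes of each role gave 0 to 3 pairs called by edgeR per list. These lists too were chosen with earlier results of these data known, so their counts are descriptions. Over all genes and classes, 0.134% of 51364 tests were called higher and 0.035% lower. None of the CDK inhibitors and p53 targets (116 gene and class pairs passed the filter), linker histones (25), KLF-family genes and Klf2 targets (63), metal-response genes (37), GADD45-family genes (18) or histone deacetylases (50) was called in either direction by edgeR or by DESeq2. At an unadjusted edgeR p under 0.05 these lists had 3, 2, 6, 2, 0 and 0 pairs higher and 1, 7, 3, 2, 0 and 2 pairs lower, in the order named. The thioredoxin and arrestin-domain genes had 2 higher and 2 lower of 59 pairs, and the tubulins 19 higher and 0 lower of 61. The clusterin-related list, of chaperone and apolipoprotein genes with Lrp2 and Lrp8, had 5 higher and 1 lower of 16. At the same unadjusted threshold, 3.73% of tests over all genes and classes were higher and 2.97% lower. Of the thioredoxin and arrestin-domain genes, 1 of 59 pairs rose by adjusted p and 0 fell: Txn1, thioredoxin itself, was 1858, 2147 and 1162 CPM in cDC1-like cells with panobinostat against 1432, 1434 and 985 CPM with vehicle. It was higher with panobinostat within each disease state (+0.43 log2, SE 0.0641, edgeR adjusted p = 0.0034). Of the tubulin pairs, 1 of 61 rose, with 49 of 61 changes above 0: Tuba1b, an alpha-tubulin, was 126, 156 and 125 CPM in cDC1-like cells with panobinostat against 106, 96.3 and 87.3 CPM with vehicle, without overlap (+0.51 log2, edgeR adjusted p = 0.0105). Of the clusterin-related list, 3 of 16 pairs rose. Hspb1, a small heat shock protein, was 8.36, 9.26 and 25.2 CPM in cDC1-like cells with panobinostat against 2.38, 6.48 and 7.23 CPM with vehicle, without overlap (+1.62 log2, edgeR adjusted p = 0.00203). The other two pairs, named after their values were seen, were of Apoe, the gene of apolipoprotein E. Apoe in cDC1-like cells was 155, 146 and 370 CPM with panobinostat against 107.5, 92.4 and 304 CPM with vehicle, higher within each disease state (+0.48 log2, edgeR adjusted p = 0.0131). In pDC-like cells it was 123, 156 and 97.8 CPM with panobinostat against 86.8, 73.3 and 118 CPM with vehicle (+0.59 log2, edgeR adjusted p = 0.0459), higher in the leukemia panobinostat samples but lower in WT panobinostat than in WT vehicle.

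Across 41 class-by-sample sums, the genes whose log2 levels followed each of the 9 most closely differed from one to the next; the sums of 1 sample share a capture and a hashtag, so Pearson's r is a description. Mt1 was closest to Mt2 (r = 0.835), and then to Tnfaip2 (0.822) and Smpdl3a (0.81). Mt2 was closest to Icam4 (0.889), Cdc25b (0.877) and Car2 (0.87). Gadd45b was closest to Epsti1 (0.929), Adora2a (0.91) and Tnfrsf4 (0.905), and Cdkn1a to Lrrc8c (0.925), Fam60a (0.828) and Socs2 (0.821). Klf2 was closest to Ddx3y (0.953), Zmynd11 (0.952) and Eif2s3y (0.948), and Txnip to Smim11 (0.912), Tceal9 (0.903) and Selenof (0.9). H1f0 was closest to Cyth3 (0.912), Lxn (0.881) and Cd59a (0.862), Clu to Jag1 (0.87), Gng11 (0.856) and Dstn (0.842), and Tubb3 to Strn3 (0.877), Ly6c1 (0.848) and Acly (0.847).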

How the data were processed

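Single-cell RNA, hashtag and antibody libraries of 1 pooled capture were analysed. The deposited values are raw UMI counts per gene, tag or antibody and barcode; the authors' pipeline was Cell Ranger 3.1.0 per the file headers, with Seurat 3.1.0 and GRCm38 (mm10) per the submitters' processing notes. Hashtags were called by a negative-binomial cut at the 99% quantile, cells needed 500 genes and at most 10% mitochondrial UMIs, and doublets scored above 0.5 with an expected share of 40% were removed; that share was set after the data were seen. Cells were clustered (2000 variable genes without the 9 genes and their lists, 30 components, Leiden resolution 1; igraph 0.11.9, leidenalg 0.10.2) and named from markers, except where pancreatic enzyme or other genes led. UMI counts were summed per class and hashed sample with at least 20 cells and tested with edgeR 4.0.16 (TMM, quasi-likelihood, disease and treatment as terms; R 4.3.3), with p-values adjusted by Benjamini-Hochberg over all genes of the class; summed counts were 127502 to 20801822 UMIs. The steps were tested on simulated data. For the fits, this covered only pDC-, cDC1-, cDC2- and mature DC-like cells, with the same low dispersion for every gene. The noisier B cell-like and erythroid-like fits (biological coefficient of variation 21.6 and 19.4%) were not simulated. Alternatives were other scalings, DESeq2 1.42.0, no low-count filter, other hashtag, doublet, cell and cluster settings, a replicate block, and leaving out each sample. Leukemia and interaction effects were not fitted without a WT sample. For the lists, the gene with the smallest adjusted p per direction is named; genes most like each of the 9 were the 3 with the highest Pearson r of log2(CPM + 1) among genes with a mean of 20 CPM or more. The 9 genes and the lists were chosen with earlier results of these data known. Intervals on shares and CPM cover counting error only.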

Additional observations from a re-analysis of the deposited data

Results flagged for a closer look

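In cDC1-like cells the interaction of treatment and disease for Gadd45b was 1.28 log2 (95% interval 0.813 to 1.74, alternatives 0.786 to 1.88 log2). No alternative left out a WT sample. The edgeR call held in 9 of 16 alternatives, and DESeq2 did not call it. Levels were 185.5 and 149 CPM with panobinostat against 83.4 and 51.0 CPM with vehicle in leukemia-bearing mice, and 100 CPM with panobinostat against 96.6 CPM with vehicle in WT mice. The WT side is 1 sample per treatment, and the Gadd45b-high cluster 16 held 26.4 and 19.3% of cDC1-like cells with panobinostat against 19.2 and 8.88% with vehicle in leukemia-bearing mice, and 14.4% with panobinostat against 12.6% with vehicle in WT mice; its part was not tested.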

How the results depend on the processing

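No effect called before or after a change of setting turned its sign with that change. Of all values under an alternative, 68 of 780 panobinostat values (in 22 of 42 pairs) had the other sign than in the main setting. The same held for 70 of 628 leukemia values and 32 of 367 interaction values. Each such value was called neither in the main setting nor in that alternative. The pairs called higher with panobinostat numbered 1, against 6 with no low-count filter, 2 with the replicate block (Clu in mature DC-like cells joined), 3 in the leukemia samples alone, and 0 with the hashtag ratio call, with Leiden resolution 0.5 or 2, with list genes used for clustering, or with pancreatic genes ignored in naming (added after the data were seen); leaving out 1 sample gave 0 to 3. Pairs called lower stayed at 0 in all 20 alternatives. Pairs higher in leukemia-bearing mice numbered 0, against 1 with no filter or no doublet removal, and 0 to 1 leaving out 1 sample. Pairs lower numbered 3, against 1 with scaling by total UMIs or DESeq2 and 7 with no filter, and 1 to 3 leaving out 1 sample. The interaction calls numbered 1, against 3 with no filter and 0 with DESeq2, no doublet removal, Leiden resolution 0.5 or 2, list genes used for clustering, the stricter cell filter or pancreatic genes ignored; leaving out 1 sample gave 1 to 4. For the leukemia and interaction counts, only leukemia samples were left out. Shares over all genes and classes are not given for these settings, so the counts have no background to be set against. The cause of these moves was not tested. Replicate numbers are shared by the leukemia samples alone, and the labels do not say that a number marks a shared animal or batch; the correlation of same-numbered deviations was 0.0291 to 0.292 over 5 classes, and 2 pairs do not settle whether they pair the samples. Of single panobinostat values under an alternative, 655 kept their call or, if not called, stayed within 1 SE, 13 gained a call and 7 lost one. Another 105, called neither in the main setting nor in that alternative, moved by more than 1 SE. UMIs were few for Mt2 and Tubb3 in cDC1-like and pDC-like cells and for Clu in pDC-, cDC1- and cDC2-like cells.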
